A study of Mus musculus with 235 samples.

Results

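The transcripts described are those of the mitochondrial ribosomal proteins: every gene whose symbol starts with Mrpl or Mrps followed by a digit. A gene was taken from its brightest probe set among those assigned to 1 symbol. This gave 76 genes of 18146 measured, 47 named for the large subunit (Mrpl) and 29 for the small subunit (Mrps), and all 76 were brighter than the 40th percentile of all genes. Mrpl30 and Mrpl53 appear on the array only in probe sets shared by several symbols and were not analysed here. Of the 76 members, 34 had 1 probe set and 42 had several.

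The data are 235 expression arrays of left liver lobe from female mice of 31 inbred strains, 8 to 10 weeks old at the start. Isoniazid (100 mg/kg) or its vehicle, sterile water, was gavaged daily for 3 days in every strain, and the lobe was collected 24 hours later. All 31 strains have 4 vehicle arrays. Isoniazid arrays number 4 in 22 strains, 3 in 5 strains and 2 in 4 strains. The labels also give each strain a steatosis status, present in 13 strains and absent in 18. PWK/PhJ is a wild-derived strain. Isoniazid is a drug for tuberculosis that the liver acetylates and hydrolyses, and it can injure the liver.

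Mitochondria translate the few proteins encoded by their own DNA on ribosomes of their own. The ribosomal RNAs come from mitochondrial DNA, whereas all the ribosomal proteins are encoded in the nucleus, made in the cytosol and imported. The small subunit binds and decodes the messenger RNA and the large subunit forms the peptide bond, and the products are core subunits of the respiratory chain and ATP synthase, on which hepatocytes depend heavily. Some of the proteins descend from bacterial ribosomal proteins and others were added in the evolution of the mitochondrion.

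Nuclear genes of mitochondrial function are known to be driven in part by the transcription factors NRF1, GABP (an ETS factor) and YY1. RefSeq promoters on GRCm38.p6, which span the transcription start and lie mostly before it, were matched for 67 of the 76 members. The NRF1 letters GCGCANGCG were found on either strand in 15 of these 67 promoters (22.4%), against 10.5% of the 14411 promoters of measured genes. The ETS letters CCGGAAG were in 24 (35.8%) against 13.8%, and the YY1 letters AANATGGCG in 11 (16.4%) against 3.89%. Among members, the YY1 letters lay before the start only in Mrpl36 and Mrps11. In the other members that hold them they lay after it, in transcribed sequence. Where they lie in the promoters of all genes was not examined. At least 1 of these motifs was in 40 member promoters (59.7%) and in 24.6% of all. The GC box GGGCGG, bound by SP1, was in 50.7% of member promoters against 54.1% of all, and the E-box CACGTG, bound by MYC, in 7.46% against 9.02%. The estrogen-related receptor letters TNAAGGTCA were in no member promoter and in 1.03% of all. Among the promoters of members that were higher after isoniazid (tested over strains, with values given further on), NRF1 letters were in 5 of 38, ETS letters in 13 and YY1 letters in 7. Among the other 29 promoters the numbers were 10, 11 and 4. Each motif was searched by itself on both strands, so matches of different motifs may overlap, and a match is a description of the sequence only.

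The promoters below belong to members on which the results turn, read 5′ to 3′ on the gene's strand and cut where another annotated transcript begins. Capitals mark ETS or NRF1 letters. Mrps27 and Mrpl51 are the members that were higher after isoniazid in every strain, and Mrpl17 was higher and holds NRF1 letters at 2 places. Mrps25 had the largest mean rise among the small subunit genes and holds none of the ETS and NRF1 letters in the stretch shown. Mrpl9 is the only member called lower. Mrpl51, Mrpl17, Mrpl46 and Mrps11 were picked for display after their values were seen.
Mrps27, chr13:99344679-99344766, plus strand, -107 to -20 from the start: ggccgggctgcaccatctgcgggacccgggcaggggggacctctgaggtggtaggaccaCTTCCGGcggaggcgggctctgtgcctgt
Mrpl51, chr6:125192101-125192199, plus strand, -99 to -1 from the start: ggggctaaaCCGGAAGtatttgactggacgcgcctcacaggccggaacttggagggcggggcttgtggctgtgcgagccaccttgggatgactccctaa
Mrpl17, chr7:105811088-105811237, minus strand, -150 to -1 from the start: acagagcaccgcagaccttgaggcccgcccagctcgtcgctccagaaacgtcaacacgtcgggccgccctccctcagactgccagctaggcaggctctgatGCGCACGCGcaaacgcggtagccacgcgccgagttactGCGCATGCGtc
Mrps25, chr6:92184024-92184173, minus strand, -150 to -1 from the start: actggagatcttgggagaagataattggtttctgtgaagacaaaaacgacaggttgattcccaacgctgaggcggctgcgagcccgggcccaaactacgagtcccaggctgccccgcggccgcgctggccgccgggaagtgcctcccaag
Mrpl9, chr3:94443298-94443327, plus strand, overlapping NRF1 letters of both strands at -28 to -19 from the start, with 10 bases on each side: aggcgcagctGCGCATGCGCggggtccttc
Mrpl46 and Mrps11, chr7:78783090-78783130, plus strand, the 41 bases between their starts: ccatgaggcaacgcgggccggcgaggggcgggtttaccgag

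Mrpl46 (large subunit) and Mrps11 (small subunit) are transcribed away from each other from starts that lie 42 bases apart, so the whole stretch between them is printed. Of the 67 member promoters, 20 (29.9%) had the start of another gene on the opposite strand within 300 bases, against 11.7% of promoters of measured genes. The neighbours include Sars2, the mitochondrial seryl-tRNA synthetase, 147 bases from Mrps12, and Twnk, the mitochondrial DNA helicase, 116 bases from Mrpl43.

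Samples were compared with the strain as the replicate: for each gene, the mean of the isoniazid animals minus the mean of the vehicle animals was taken in each strain, and the 31 differences were tested against 0 with limma on log2 values, with Benjamini-Hochberg adjustment over all 18146 genes. A gene was called at an adjusted p under 0.05. In RNA of a whole lobe, fewer cells of a type and less RNA per cell cannot be told apart. Arrays differed in the spread of their log2 values: 21 of 235 stood apart with an SD of 2.20 or less, against 2.23 or more in the others, 11 of them vehicle and 10 isoniazid arrays in 19 strains. The mean level of the 76 members on these narrow-spread arrays had a median of -0.31 relative to the mean of all arrays, against 0.02 on the other arrays, so strain values are given with and without them.

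After isoniazid, 42 of the 76 members rose, 1 fell and 33 were not called (limma on 31 strain differences). Over all genes, 10.2% were called higher and 9.85% lower, and among the 10888 genes above the 40th percentile 15.2% were called higher. The median change of the members was 0.11 on the log2 scale against 0.001 for all genes, and 69 of 76 changes were above 0. The changes were small, from -0.19 for Mrpl9 to 0.34 for Mrpl54, a 1.26-fold higher level. The count of members called higher was 49 without the narrow-spread arrays, where 13.0% of all genes were called higher.

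**Figure D1:**
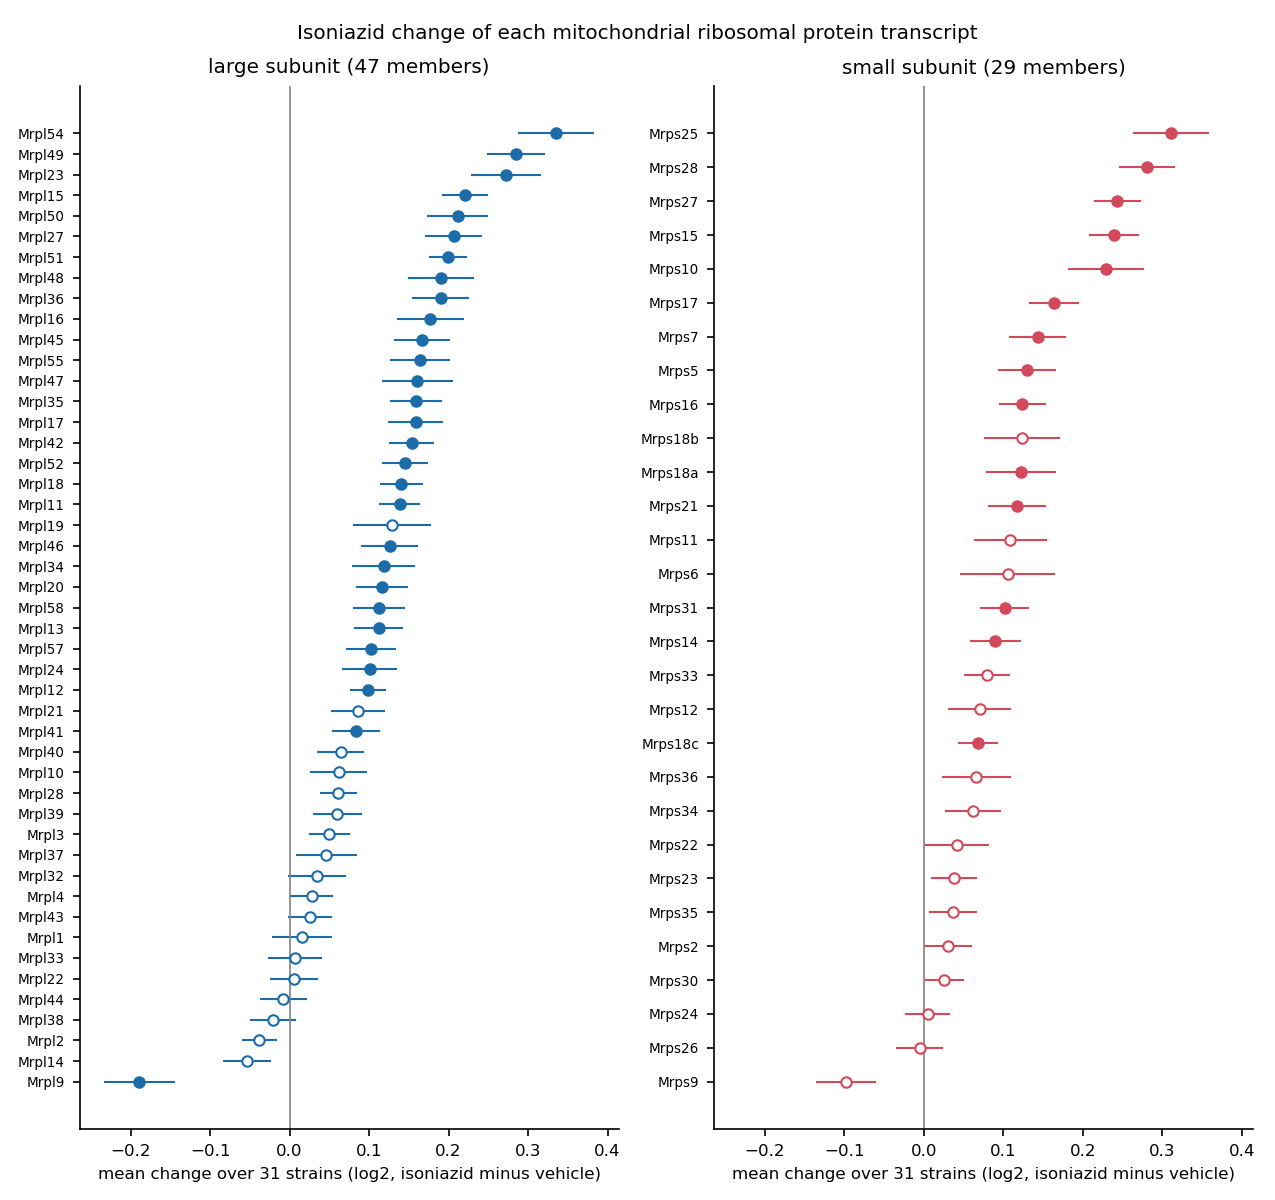
Mean change of each member over 31 strains (log2, isoniazid minus vehicle) with its standard error, large subunit at left and small subunit at right; filled points passed the test at an adjusted p under 0.05. The 42 members that rose and the 33 not called overlap in size, and Mrpl9 is the lowest at -0.19.

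In the large subunit, 28 of 47 members rose and 1 fell, with a median change of 0.11. Mrpl54, a protein with no bacterial counterpart, had strain means from 6.29 in NON/LtJ through a median of 6.85 to 7.26 in SM/J under vehicle, and from 6.62 through 7.18 to 7.68 under isoniazid. The ranges overlapped, but 27 of 31 strains moved up, and the mean change was 0.34 ± 0.05 (SE, n = 31 strains, adjusted p = 2.54e-06). The second probe set of Mrpl54 was dim and changed by 0.05.

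Mrpl49 ranged from 6.67 through 7.29 to 7.65 in vehicle strains and from 7.06 through 7.52 to 7.94 in isoniazid strains. It was higher in 28 of 31 strains by a mean of 0.28 ± 0.04 (SE, n = 31, adjusted p = 3.97e-07), and its other probe set changed by 0.12. Mrpl23, the counterpart of a bacterial protein at the exit of the peptide tunnel, ranged from 8.07 through 8.73 to 9.22 under vehicle and from 8.45 through 8.96 to 9.47 under isoniazid. Its change was 0.27 ± 0.04 (SE, n = 31, adjusted p = 1.71e-05), with 28 strains up.

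Mrpl51 ranged from 9.74 through 9.91 to 10.15 in vehicle strains and from 9.93 through 10.13 to 10.48 in isoniazid strains. All 31 strains were up, the smallest change being 0.027 in RIIIS/J and the largest 0.46 in NZW/LacJ, with a mean of 0.20 ± 0.02 (SE, adjusted p = 1.22e-07). A change above 0 in every strain was found for 2 members, Mrpl51 and Mrps27, and for 0.105% of all genes. Mrpl15, which has 8 probe sets, rose by 0.22 ± 0.03 (SE, n = 31, adjusted p = 6.52e-07), and its probe sets changed by between -0.11 and 0.40. Mrpl50 rose by 0.21 ± 0.04 (SE, n = 31, adjusted p = 9.38e-05) in 27 of 31 strains.

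Members with well-known roles had changes of different size. Mrpl12, which also binds the mitochondrial RNA polymerase, ranged from 10.44 through 10.64 to 10.81 under vehicle and from 10.54 through 10.73 to 10.91 under isoniazid. It rose by 0.10 ± 0.02 (SE, n = 31, adjusted p = 0.00128), with 24 strains up. Mrpl10, which anchors Mrpl12 in the stalk, had a change of 0.06 ± 0.04 (SE, adjusted p = 0.261) and did not pass. Mrpl11, at the base of the same stalk, rose by 0.14 ± 0.03 (SE, n = 31, adjusted p = 0.000116) in 28 of 31 strains.

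Mrpl45, which tethers the ribosome to the inner membrane, rose by 0.17 ± 0.04 (SE, n = 31, adjusted p = 0.00054) in 28 strains. Mrpl44, mutated in an inherited cardiomyopathy, had a change of -0.008 ± 0.03 (SE, adjusted p = 0.903), with 16 strains up. Mrpl22 and Mrpl33 likewise stayed uncalled, at 0.006 and 0.007, and the sign of these 3 small values turned under some settings.

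Mrpl9 fell. Its strain means ran from 6.90 through 7.47 to 7.86 under vehicle and from 6.71 through 7.18 to 7.85 under isoniazid, and 26 of the 31 strains moved down. The mean change was -0.19 ± 0.04 (SE, n = 31, adjusted p = 0.00178), and all 3 probe sets of Mrpl9 changed by between -0.21 and -0.18. The largest fall, -0.92, was in SEA/GnJ, which has 2 isoniazid arrays, 1 of them of narrow spread. Without the narrow-spread arrays the mean change of Mrpl9 was -0.19.

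In the small subunit, 14 of 29 members were called higher and none lower, with a median change of 0.10. The limma test left 15 uncalled. The lowest of these was Mrps9 at -0.10, with 12 of 31 strains up. Its dimmer probe sets changed by between -0.11 and -0.02. Mrps9 was called lower in 11 of 46 other settings. Mrps25, which has no bacterial counterpart, ranged from 5.79 in C58/J through 6.78 to 7.70 in SEA/GnJ under vehicle and from 6.07 through 7.04 to 7.80 under isoniazid. It was higher in 28 of 31 strains by 0.31 ± 0.05 (SE, n = 31, adjusted p = 8.83e-06), while its dimmer probe sets changed by 0.24 and -0.01.

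Mrps28 ranged from 8.13 through 8.46 to 8.69 in vehicle strains and from 8.45 through 8.71 to 9.08 in isoniazid strains. It rose by 0.28 ± 0.04 (SE, n = 31, adjusted p = 3.32e-07), with 29 strains up. Mrps27, a pentatricopeptide repeat protein of the small subunit, ranged from 6.58 through 6.88 to 7.45 under vehicle and from 6.80 through 7.11 to 7.68 under isoniazid. All 31 strains were up, from 0.012 in KK/HIJ to 0.88 in PWK/PhJ, with a mean of 0.24 ± 0.03 (SE, adjusted p = 1.77e-07).

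Mrps15 and Mrps10, both with bacterial counterparts, rose by 0.24 ± 0.03 (SE, n = 31, adjusted p = 5.97e-07) and 0.23 ± 0.05 (SE, n = 31, adjusted p = 0.000529). Mrps15 was up in 30 strains and Mrps10 in 26. Mrps22 and Mrps34, both mutated in inherited mitochondrial disease, changed by 0.04 ± 0.04 and 0.06 ± 0.04 (SE, n = 31) with adjusted p of 0.555 and 0.25. Mrps12, the decoding centre protein, changed by 0.07 ± 0.04 (SE, adjusted p = 0.237).

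Mammals have 3 versions of the S18 protein. Mrps18a, which sits in the large subunit despite its name, rose by 0.12 ± 0.04 (SE, n = 31, adjusted p = 0.0433), a call lost in 23 of 46 other settings (highest adjusted p 0.142). Mrps18b changed by 0.12 ± 0.05 (SE, adjusted p = 0.0639) and was not called. Mrps18c rose by 0.07 ± 0.03 (SE, n = 31, adjusted p = 0.0486), a call lost in 27 of the 46 (highest adjusted p 0.177). Mrps30, also placed in the large subunit by structures, changed by 0.03 ± 0.03 (SE, adjusted p = 0.541), and Mrps36, now known as a part of the oxoglutarate dehydrogenase complex, by 0.07 ± 0.04 (SE, adjusted p = 0.336). Mrps36 is named for its placement, after its value was seen.

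The subunits moved together over strains. With Mrps18a and Mrps30 counted in the large subunit and Mrps36 left out, 29 of 49 large and 13 of 26 small subunit members rose, with medians of 0.11 and 0.10. In single strains the large subunit median was above the small subunit median in 19 of 31 strains, and their mean difference was 0.006 with an SD of 0.04 over strains. Across the 31 strains the medians of the 2 subunits correlated at r = 0.96 (rho 0.95, and r = 0.95 without NZW/LacJ and NOR/LtJ), a description in which both medians share every array. Of the large subunit proteins with a bacterial counterpart 16 of 29 rose and of those without one 12 of 18, against 9 of 15 and 5 of 14 in the small subunit. Over all genes 10.2% rose, and the differences between these groups of members were not tested.

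Mrpl46 and Mrps11, which share a start region, changed by 0.13 ± 0.04 (SE, n = 31, adjusted p = 0.0105) and 0.11 ± 0.05 (SE, n = 31, adjusted p = 0.0979), so 1 of the 2 was called. Their changes over 31 strains correlated at r = 0.74 against a median r of 0.54 over the 2850 pairs of members, and their vehicle strain means at r = 0.16 against 0.25. All of these values share the same arrays. Of the 18 neighbours that are no member, 3 rose, 1 fell and 14 were not called, where 10.2% of all genes rose and 9.85% fell. The counts are too small to set apart from those shares. The neighbours named here were chosen after their values were seen. Ptcd2 beside Mrps27 rose by 0.07 (adjusted p = 0.0264), Psma2 beside Mrpl32 by 0.17 (adjusted p = 0.000192) and Klc4 beside Mrpl2 by 0.13 (adjusted p = 0.00496), while Mrpl2 itself was not called at -0.04. Tmem63b beside Mrpl14 fell by 0.12 (adjusted p = 0.00204), and Fau beside Mrpl49 and Sars2 beside Mrps12 were not called at 0.010 and 0.09.

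The size of the measured change differed between strains. The median change of the 76 members ran from -0.21 in NOR/LtJ, -0.16 in SEA/GnJ, -0.10 in CBA/J and -0.08 in C57Bl/6J through a median strain of 0.09 to 0.28 in PWK/PhJ, 0.30 in LG/J, 0.35 in DBA/2J and 0.45 in NZW/LacJ. It was above 0 in 25 of 31 strains, in 29 without the narrow-spread arrays and in 30 with array spread as a term in the model. The SD of the strain medians was 0.14 on all arrays, 0.09 without the narrow-spread arrays and 0.08 with that term. The interaction of strain and treatment was an F test in a limma fit of 62 groups with animals as replicates. It was called for 39 of 76 members against 17% of all genes and 26.0% of genes above the 40th percentile. A high share was not particular to the members, since 22 of 35 cytosolic ribosomal protein genes (62.9%) were called too. Of the large subunit 26 of 47 members were called, of the small subunit 13 of 29.

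**Figure D2:**
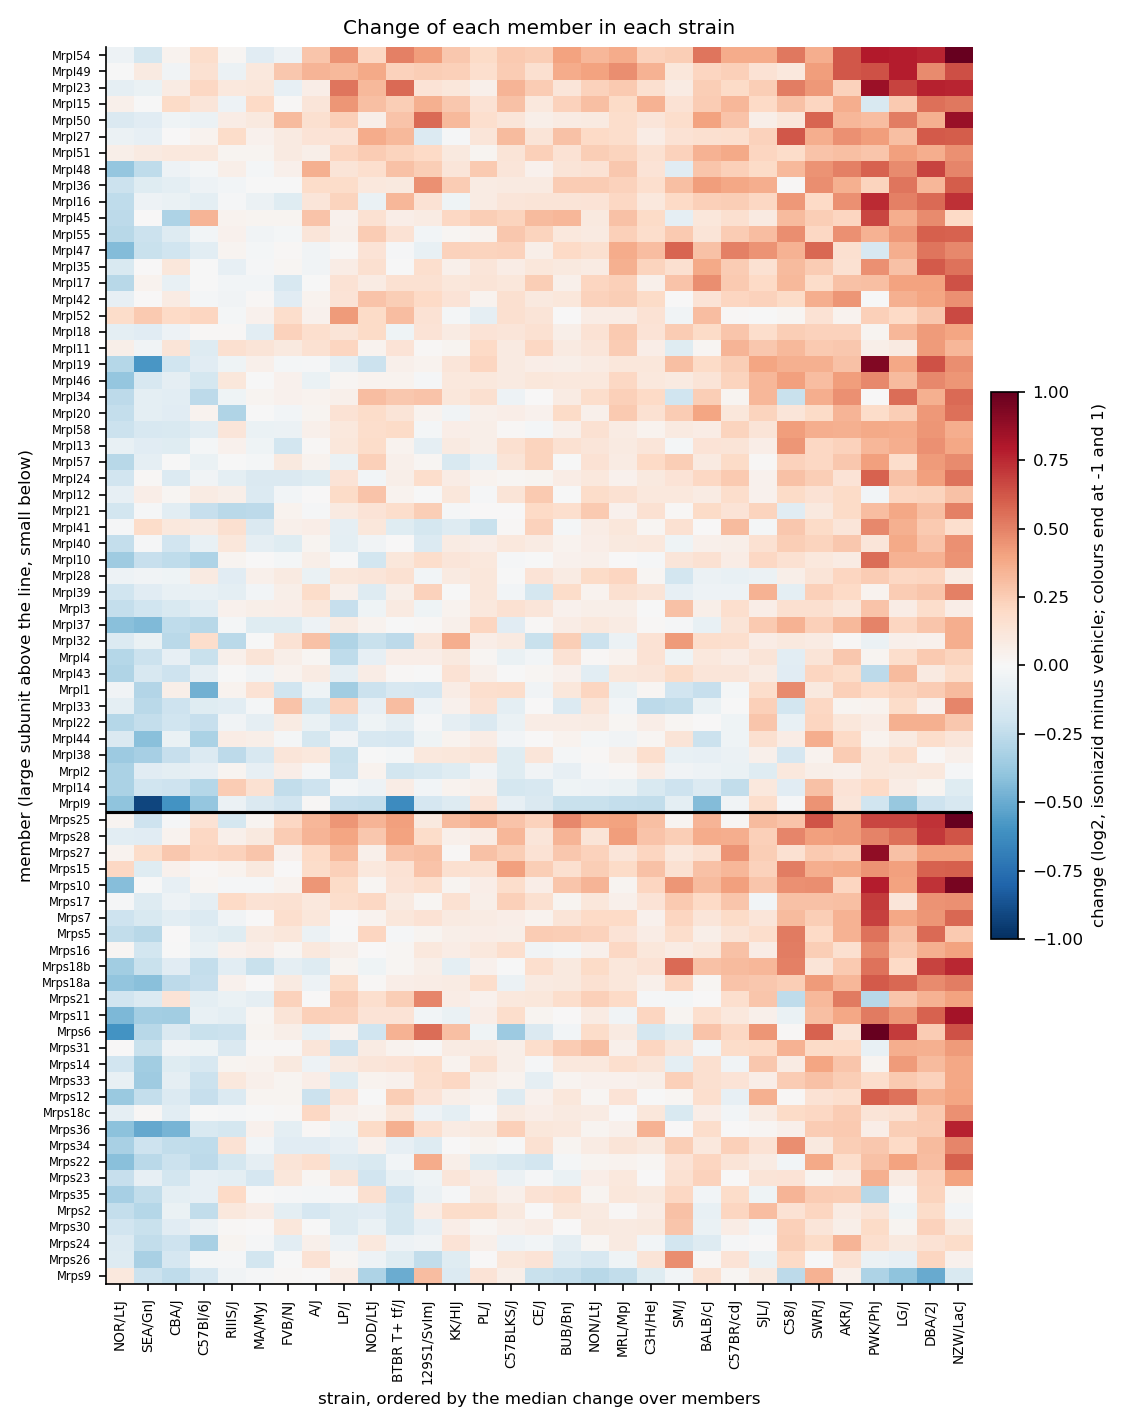
Change of each of the 76 members in each of 31 strains (colour, log2, isoniazid minus vehicle), strains ordered by the median over members and members by their mean change within each subunit. In NOR/LtJ at the left 66 of 76 members were below 0, in NZW/LacJ at the right 71 were above 0, and the lowest row of each subunit, Mrpl9 and Mrps9, is blue in PWK/PhJ, LG/J, DBA/2J and NZW/LacJ.

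Within single strains, the number of member and strain pairs called within a strain was 164, of which 3 were lower. NZW/LacJ had 51 members higher (9.32% of all genes were called higher there), PWK/PhJ 32 (10.4%), DBA/2J 31 (4.56%), LG/J 14 (2.24%), C58/J 13 (3.63%) and AKR/J 9 (1.9%). In 6 other strains 1 to 3 members were called higher, where between 0.253% and 1.13% of all genes were, and in the remaining 19 strains none. NOR/LtJ had 2 members lower, Mrpl2 (named after its value was seen) and Mrps6, where 3.63% of genes were lower, and SEA/GnJ had 1, Mrpl9 (1.57%).

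The animals of these strains show the size of the difference. In NZW/LacJ, Mrpl54 stood at 6.73, 6.59, 6.85 and 6.48 in the 4 vehicle animals and at 7.66, 7.81, 7.56 and 7.68 in the 4 isoniazid animals. The groups did not overlap, and the change was 1.01 ± 0.14 (SE, adjusted p = 3.03e-09 in limma). In PWK/PhJ, Mrps27 stood at 6.45, 6.94, 6.99 and 6.79 under vehicle and at 7.53, 7.74, 7.87 and 7.58 under isoniazid, again without overlap (0.88 ± 0.14, SE, adjusted p = 5.36e-08).

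Mrpl16, a core protein of the large subunit, had the largest interaction F of all members (4.08, adjusted p = 1.7e-07). In PWK/PhJ it went from 9.25, 8.74, 9.31 and 9.31 under vehicle to 9.70, 10.10, 9.90 and 9.91 under isoniazid, and in NOR/LtJ from 9.35, 9.42, 9.15 and 9.42 to 8.88, 9.14, 9.12 and 9.21. The lowest vehicle animal in PWK/PhJ and the isoniazid animals 1 and 3 in NOR/LtJ are narrow-spread arrays. It was called higher in 6 strains and lower in none. Mrpl24, a large subunit protein near the tunnel exit, had an F of 3.84 (adjusted p = 6.5e-07) and was called higher in DBA/2J (0.41), NZW/LacJ (0.54) and PWK/PhJ (0.59). Mrpl54 (F = 3.59) was called higher in 8 strains and Mrpl23 (F = 3.11) in 6.

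Mrps6, a platform protein of the small subunit, had the second interaction F (3.93, adjusted p = 4.1e-07), although its mean change over strains, 0.11 ± 0.06 (SE, n = 31), did not pass (adjusted p = 0.243). In PWK/PhJ it rose from 7.68, 7.71, 7.66 and 7.69 to 8.23, 9.30, 8.73 and 8.63. In NOR/LtJ the vehicle animals stood at 7.96, 7.85, 7.91 and 7.85 and the isoniazid animals at 6.61, 7.88, 6.87 and 7.84. The low pair there, animals 1 and 3, are the 2 narrow-spread arrays of that strain.

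**Figure D3:**
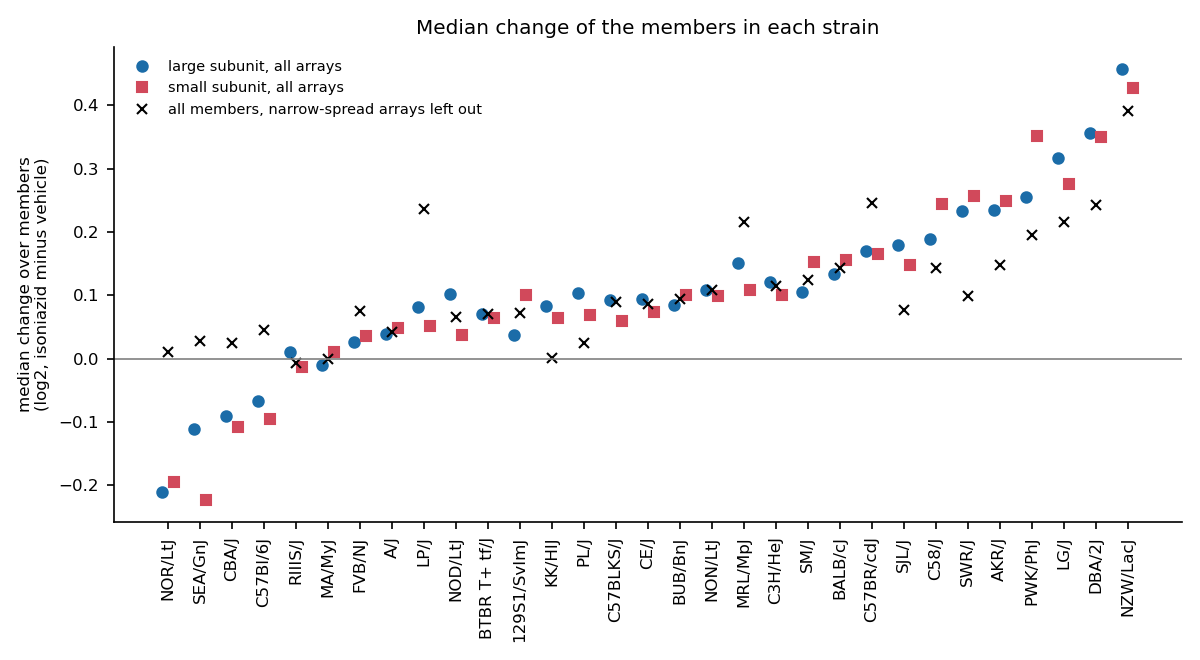
Median change over members (log2, isoniazid minus vehicle) in each of 31 strains, large subunit (circles) and small subunit (squares) on all arrays, and all members without the narrow-spread arrays (crosses). Large and small subunit medians differ most in SEA/GnJ (-0.11 and -0.22), and NOR/LtJ moves from -0.21 to 0.0099 and DBA/2J from 0.35 to 0.24 when narrow-spread arrays are left out.

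Array spread moved with these strain values. Across 31 strains, the median change correlated with the difference in mean array SD between isoniazid and vehicle at r = 0.85 (rho 0.84, and r = 0.80 without SEA/GnJ and NOR/LtJ), and the points share the arrays from which both were taken. Without the narrow-spread arrays it was r = 0.55. Within the groups, over 235 arrays, the mean level of the members and the array SD correlated at r = 0.90, and over the 214 other arrays at r = 0.65. Each of the strains NOR/LtJ, SEA/GnJ, CBA/J and C57Bl/6J has at least 1 narrow isoniazid array, and each of NZW/LacJ, DBA/2J, LG/J and PWK/PhJ has 1 narrow vehicle array. Without the narrow-spread arrays the medians were 0.0099, 0.028, 0.025 and 0.045 in the former strains and 0.39, 0.24, 0.22 and 0.20 in the latter. This leaves out 2 of the 4 isoniazid arrays of NOR/LtJ and 1 of the 2 of SEA/GnJ. The part of array spread in the strain differences was not tested.

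Without those arrays, no member was called lower in NOR/LtJ, and 1 was in each of PWK/PhJ, C58/J and BTBR T+ tf/J. Called higher were 50 in NZW/LacJ (8.65% of all genes), 30 in PWK/PhJ (9.11%), 25 in DBA/2J (3.01%) and 14 in LG/J (1.79%). C57BR/cdJ then had 15 called higher (2.09% of all genes), against 2 with every array. MRL/MpJ had 8 (1.26%) against 0, and BALB/cJ, which holds no narrow-spread array, 8 (2.09%) against 3. In C58/J the count went down, from 13 to 10 (3.59%). The interaction was called for 34 members without those arrays (17.3% of all genes in the same fit) and for 44 with array spread as a term (22.5%). Removing the animals numbered 2 in every group left 8 members with a called interaction (10.5% of members, 7.24% of all genes) and removing those numbered 4 left 13 (17.1% and 9.32%). Over the 10 scan dates the median member change was between -0.09 and 0.24 and was above 0 on 9 of them. The arms were unequal on most dates, from 15 vehicle and 9 isoniazid arrays to 8 and 15. Differences between strains can therefore enter these values.

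**Figure D4:**
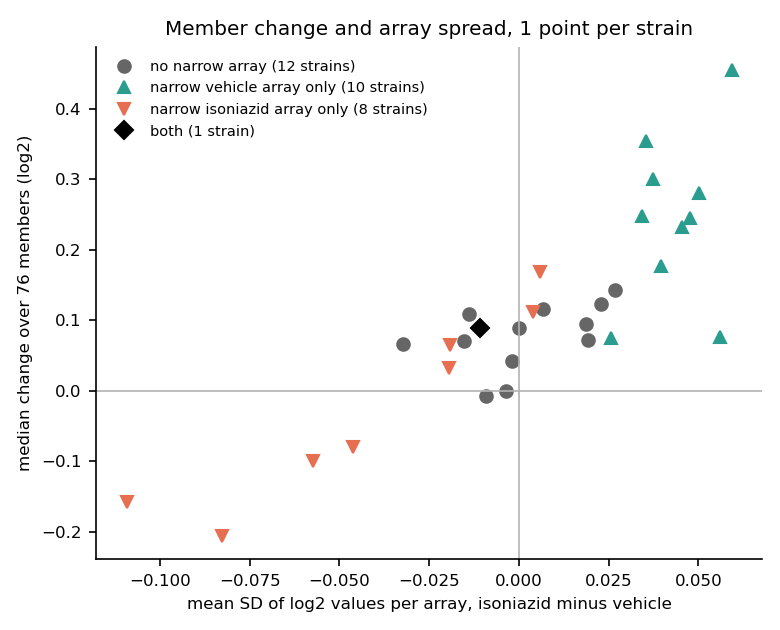
Median change over 76 members (log2) against the difference in mean array SD between isoniazid and vehicle animals, 1 point per strain, with shape showing which arm holds an array of narrow spread. The 4 lowest strains (-0.21 to -0.08) all have a narrow isoniazid array, and the 4 highest (0.28 to 0.45) all have a narrow vehicle array.

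Strains differed in the level of most members without the drug. In vehicle liver, the F test over 31 strains (limma, animals as replicates, 173 residual degrees of freedom) was called for 72 of 76 members, against 53.4% of all genes and 74.9% of genes above the 40th percentile. The 4 not called were Mrpl4, Mrpl37, Mrpl40 and Mrpl52. The SD of a member's strain means had a median of 0.17, and the SD between animals of a group a median of 0.18. Probes were designed on a reference sequence, and the part of strain variants under the probes was not tested.

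Mrps12, whose bacterial counterpart is the site of streptomycin resistance, had the largest F (10.1, adjusted p = 7.2e-24). Its vehicle strain means rose from 7.84 in LG/J, 7.94 in 129S1/SvImJ and 7.98 in NZW/LacJ through a median of 8.62 to 8.91 in RIIIS/J. A gap of 0.13 separates the lowest 11 strains from the other 20. Strain means of the isoniazid animals, which are other mice, correlated with the vehicle means at r = 0.70 over 31 strains.

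Mrpl39 (F = 8.29, adjusted p = 7.4e-20) ran from 7.91 in SJL/J through 8.33 to 9.12 in MA/MyJ, which lay 0.24 above the next strain. Its other probe set was dim and did not set MA/MyJ apart, at 1.86 (others 1.56 to 2.11). Mrps14 (F = 6.81, adjusted p = 3e-16), a protein of the small subunit head, ran from 8.69 in 129S1/SvImJ through 8.94 to 9.64 in PWK/PhJ. Mrpl33 (F = 6.64, adjusted p = 8.1e-16), a small protein of the large subunit, ran from 7.39 in FVB/NJ through 7.79 to 8.26 in AKR/J. Vehicle and isoniazid strain means correlated at r = 0.79 for Mrpl39, 0.75 for Mrps14 and 0.78 for Mrpl33, and at a median of 0.50 over the 76 members against 0.32 over all genes.

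Mrps9, which binds ribosomal RNA in the head of the small subunit, had an F of 7.12 (adjusted p = 5.2e-17), and 1 strain stood apart. PWK/PhJ vehicle animals stood at 6.35, 7.08, 7.25 and 6.81, and the means of the other 30 strains lay between 8.70 and 9.57. The isoniazid animals of PWK/PhJ stood at 6.76, 6.20, 6.34 and 6.97. The other probe sets of Mrps9 differed in this: PWK/PhJ was lowest on one at 6.66 (others 6.81 to 7.59) and on a dim one at 3.08 (others from 3.12), but at 6.69 it was above the median of 6.43 on another (others 6.14 to 6.72). Mrpl47, named after its values were seen, was highest in PWK/PhJ on all 3 of its probe sets, at 8.74 on the brightest (others 7.28 to 8.45).

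Mrps25 (F = 6.69, adjusted p = 6.3e-16) was lowest in C58/J, at 5.90, 6.19, 5.10 (a narrow-spread array) and 5.96, where the next strain mean was 6.36. Its second probe set was lowest in C58/J too, at 3.11 against 3.20 or more elsewhere. Under isoniazid the C58/J animals stood at 6.02, 5.96, 6.39 and 5.91, overlapping the vehicle animals.

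**Figure D5:**
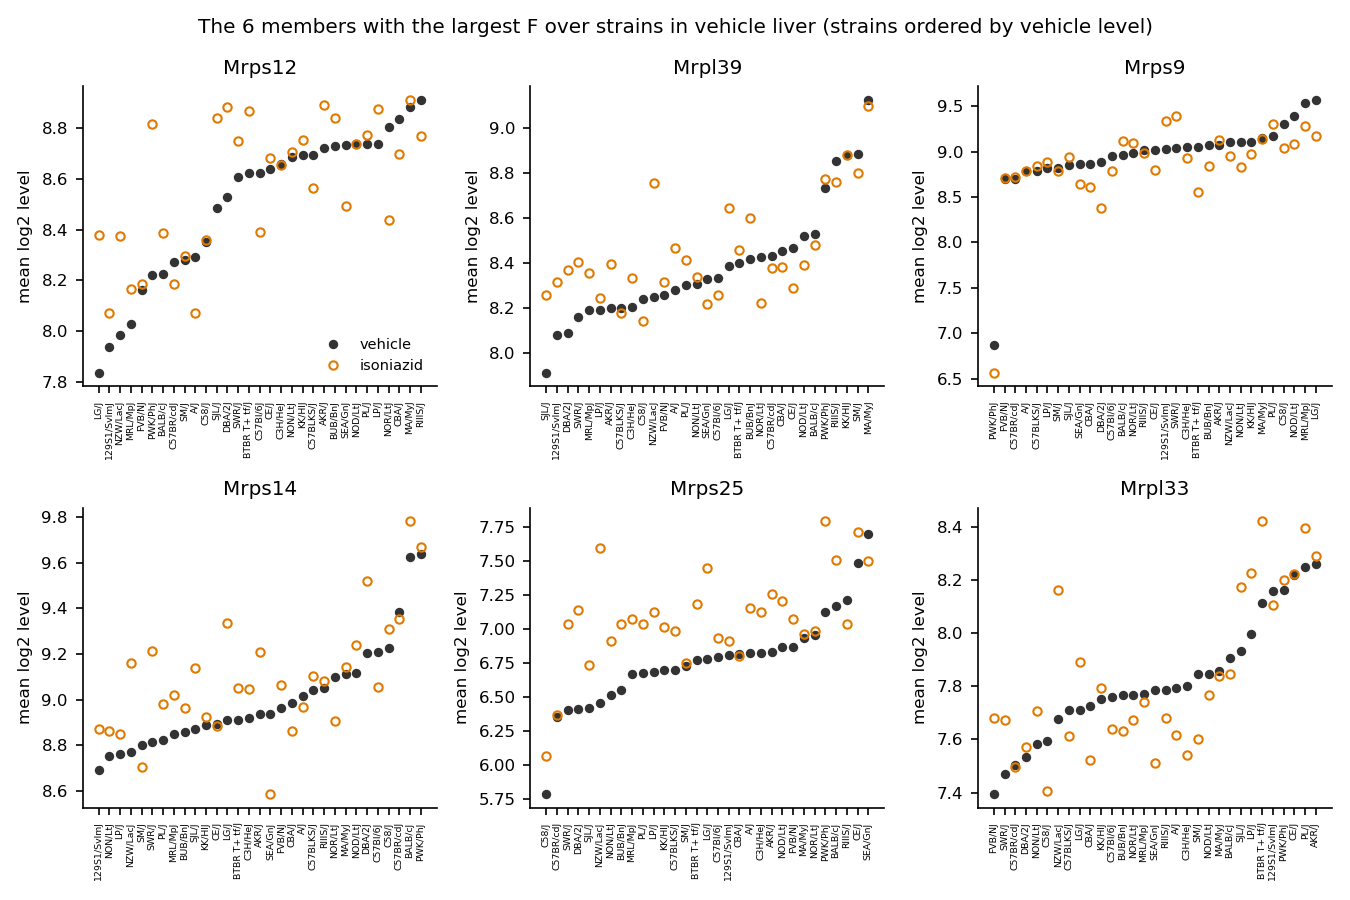
Mean log2 level per strain of the 6 members with the largest F over strains in vehicle liver, strains ordered by the vehicle mean (filled) with the isoniazid mean of the same strain (open). Mrps9 is lowest in PWK/PhJ at 6.87, Mrps12 has a gap of 0.13 above its 11 lowest strains, and the open point of Mrps25 is above the filled one in 28 of 31 strains.

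No member passed a test for steatosis status. No member and none of the 18146 genes (0%) differed in isoniazid effect between the 13 strains with steatosis and the 18 without in limma on strain differences. At an unadjusted p under 0.05 there were 2 members and 491 genes. The mean change of Mrpl22 was 0.08 with steatosis and -0.05 without, a difference of 0.13 (95% interval 0.011 to 0.25, adjusted p = 1). That of Mrpl33 was 0.09 and -0.05 (difference 0.14, interval 0.010 to 0.27). Mrpl52 differed by 0.11 (95% interval -0.0012 to 0.23). Of the 76 differences, 60 were above 0, with a median of 0.05 against 0.004 over all genes. Members move together on an array, so these are not 76 separate results. The part of array spread in them was not tested.

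Under vehicle, again no member and no gene (0%) differed by status after adjustment in limma on strain means, with 4 members and 737 genes at an unadjusted p under 0.05. Mrpl47 stood at 7.64 in steatosis strains and 7.86 in the others (difference -0.22, 95% interval -0.42 to -0.011, adjusted p = 0.988). Mrpl34 and Mrpl35 had differences of -0.17 (-0.31 to -0.025) and -0.12 (-0.21 to -0.016) with the same adjusted p. With animals taken as replicates, 14 members differed by status under vehicle, where 10.8% of all genes did, but animals of a strain share its genome.

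Proteins that work with the mitochondrial ribosome were read beside the members. Of 5 further genes listed with the mitochondrial ribosome under other symbols, Dap3 rose by 0.29 ± 0.05 (SE, n = 31, adjusted p = 1.1e-05) and Ptcd3 by 0.19 ± 0.03 (adjusted p = 3.4e-05), and Chchd1 and Oxa1l, a membrane insertase that binds the ribosome and receives its products, were not called at 0.07 and -0.07. Of 13 translation factors 6 rose and none fell (median 0.09): the elongation factor Gfm1 by 0.29 (30 of 31 strains, adjusted p = 2.8e-08), Slirp, which stabilises mitochondrial messenger RNA, by 0.30, the initiation factor Mtif3 by 0.17 and the elongation factor Tufm by 0.13. The limma test left 7 of them uncalled. The share that rose was 46.2%, against 10.2% of all genes.

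Of 21 mitochondrial aminoacyl-tRNA synthetases and amidotransferase subunits, 5 rose (23.8%, against 10.2% of all genes) and 1 fell, with a median of 0.06. Gatb, which helps charge the glutamine tRNA, rose by 0.32 ± 0.04 (SE, n = 31, adjusted p = 3e-08), Qrsl1 of the same complex by 0.30, Iars2 by 0.19 and Lars2 by 0.19, and Pars2 fell by 0.087. Of 23 ribosome assembly and rRNA modification factors, 5 rose (21.7%) and 1 fell, with a median of 0.03. The GTPase Mtg1 rose by 0.21, Malsu1 by 0.14, Mpv17l2 by 0.10 and the rRNA methyltransferase Tfb1m by 0.15, and Noa1, another GTPase, fell by 0.12.

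Of 10 genes of mitochondrial DNA transcription and upkeep, 5 rose and none fell, with a median of 0.08. Tfam, which packages the DNA and starts its transcription, rose by 0.12 ± 0.03 (SE, n = 31, adjusted p = 0.0014), Mterf1a by 0.12, the polymerase Polg by 0.16 and the elongation factor Tefm by 0.17. Of the 12 regulators, Nrf1 rose by 0.11 ± 0.03 (SE, n = 31, adjusted p = 0.0099) and no other was called. That is 8.33% of the list, no more than the 10.2% of all genes called higher. Gabpa, Gabpb1 and Gabpb2 changed by -0.08, 0.05 and -0.05, Yy1 by -0.03, Sp1 by -0.08, Esrra by 0.08, Ppargc1a by 0.11, Ppargc1b by -0.04, Pprc1 by -0.07, Myc by 0.03 and Max by 0.05.

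Of 80 nuclear subunits of oxidative phosphorylation, the machine that the mitochondrial ribosome supplies, 50 rose and 4 fell, with a median of 0.10 (Atp5g1 0.23 and Ndufb10 0.24 among the risers). Those shares were 62.5% and 5%, where 10.2% of all genes rose and 9.85% fell. The 4 that fell were Cox6b2 (-0.64, lower in all 31 strains), Cox7a1 (-0.30), Ndufa1 (-0.11) and Ndufa6 (-0.07), named after their values were seen. Over strains their median change correlated with that of the members at r = 0.47 (rho 0.49) and was above 0 in 30 of 31 strains, with an SD over strains of 0.06 against 0.14 for the members. Of 35 cytosolic ribosomal protein genes none rose and 1 fell, with a median of 0.01. Their strain medians nevertheless correlated with those of the members at r = 0.71 (rho 0.59, and r = 0.59 without NZW/LacJ and NOR/LtJ). All of these medians share the arrays and their spread. Of 15 mitochondrial stress response genes 6 rose and 2 fell, among them the chaperones Hspa9 (0.18) and Hspe1 (0.17), the protease Lonp1 (0.25) and Trib3 (0.28) on the higher side and the stress factors Atf4 (-0.16) and Ddit3 (-0.21) on the lower.

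Markers of other liver cells were read on the same arrays. Of 11 macrophage markers 8 fell and none rose, with a median of -0.22, and their mean level per strain lay between 6.19 and 8.57 under vehicle and between 5.78 and 8.91 under isoniazid. Of 10 endothelial markers 2 fell (median -0.07, strain means 5.65 to 7.10 under vehicle and 5.55 to 7.24 under isoniazid), of 10 stellate and fibroblast markers 1, of 8 lymphocyte markers 2, of 4 red cell markers 1 and of 5 bile duct markers 1, and none of these rose. Of 9 hepatocyte markers, 1 rose, the urea cycle enzyme Cps1 (0.17), and 2 fell, Hnf4a (-0.20) and Cyp2e1 (-0.06), with strain means of 13.05 to 13.54 under vehicle, high in every strain. Of 9 cell cycle genes 1 rose (Mcm5) and 1 fell (Mki67). Over all genes, 10.2% were called higher and 9.85% lower. Outside the macrophage list, the counts given here are too small to set apart from those shares. The part of these cell markers in the change of the members was not tested.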

How the data were processed

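Per the labels' protocols, total RNA of left liver lobe was labelled with a 3' IVT kit and hybridised to Affymetrix mouse arrays, 1 animal per array. The deposited values are log2 intensities, and the submitters' processing notes name Affymetrix Power Tools and RMA (background correction, quantile normalization and probe summary), without versions in the sources used here. From 44721 probe sets, 60 control, 872 with several symbols and 9072 with no symbol listed were left out. Of the 34717 with 1 symbol, the brightest by mean was kept for each of 18146 symbols. Tests used limma 3.58.1 in R 4.3.3 on all genes, on 31 strain differences or in a fit of 62 groups, with Benjamini-Hochberg adjustment and a threshold of 0.05. The fits were checked on simulated data with independent noise for each gene and animal. That check holds no effect shared by the genes of an array, so it does not cover array spread.

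The members and lists were chosen with earlier results of these data known. Named members are the up to 10 highest and lowest called, the 6 largest vehicle F, the 5 largest interaction F, the 3 smallest p for steatosis status in each comparison and a fixed list of members with known roles; of other lists up to 4 genes with the largest t, and all regulators. Exceptions are said where they stand. No 2 arrays were identical (highest correlation 0.995). Animals with the same number in both arms did not deviate together (median r = -0.02 over 111 pairs, 23 over 0.1), so numbers were not used as pairs. Alternatives were scaling, probe set choice, a filter on dim genes, scan date, animal number as a block, array spread, the variance model, the replicate unit, weights, and each animal number and strain left out. The number of arrays limits the precision.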

Additional observations from a re-analysis of the deposited data

Results flagged for a closer look

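The mean level of the 76 members, taken from the mean of all arrays, stood apart from the other animals of its group in 7 of 53 groups of 4 (chance marks about 1 group in 20), always on the low side. In SWR/J vehicle, animal 2 stood at -0.69 and the others between -0.10 and -0.02; in PWK/PhJ vehicle, animal 2 at -0.30 and the others between 0.05 and 0.08; and in MRL/MpJ isoniazid, animal 1 at -0.31 and the others between 0.01 and 0.06. These 3 are narrow-spread arrays, with an SD of log2 values of 2.10, 2.15 and 2.19. The other 4 are not: MRL/MpJ vehicle animal 4 stood at -0.34 (SD 2.25), BUB/BnJ vehicle animal 3 at -0.29 (SD 2.26), BTBR T+ tf/J vehicle animal 4 at -0.16 (SD 2.27) and MA/MyJ vehicle animal 2 at 0.046 (SD 2.30).

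The isoniazid effect differed between strains by the interaction F test in limma for 39 of 76 members, 17% of all genes and 26.0% of genes above the 40th percentile. The largest F values among members were those of Mrpl16 (4.08), Mrps6 (3.93), Mrpl24 (3.84), Mrpl54 (3.59) and Mrpl23 (3.11). Array spread moved with the strain values, as given in the results, and its part in this difference was not tested.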

How the results depend on the processing

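The number of members called higher after isoniazid over 31 strains (42) was 35 to 52 under the settings that change the processing or the replicate unit, 31 to 44 with an animal number left out and 36 to 48 with a strain left out. With the replicate block the counts were 43 higher, 1 lower, 72 with vehicle differences, 39 with an interaction and 169 for member and strain pairs called within a strain, and no count moved by over 1.5 times. Members called lower (1) were 3 with the mean over probe sets, 2 with dim genes left out, scan date or array spread (the last chosen after seeing the data) as a term, and 1 to 2 with a strain or an animal number left out. Members with an interaction (39) fell to 20 with the mean of probe sets (26.3% of members, 15.1% of all genes) and to between 8 and 31 with an animal number left out, and the pairs (164) to between 105 and 141; with fewer animals these fits have fewer samples. Of 23 called named members, 15 kept their call in all 46 settings, and the call was lost for Mrps18c in 27, Mrps18a in 23, Mrps14 in 22, Mrpl24 in 11, Mrpl34 in 7, Mrpl47 in 2 and Mrpl35 and Mrpl50 in 1 each. Among uncalled named members a call was gained for Mrps9 in 11 settings, Mrps18b in 9 and Mrps6, Mrps12 and Mrps34 in 1 each. The uncalled change of Mrpl33 turned to -0.022 with the mean of probe sets, -0.0067 with scan date, lay between -0.0099 and 0.021 with an animal number left out and turned to between -0.0091 and -0.00059 without 1 of 5 strains. The change of Mrpl22 turned to -0.0035 with array spread, lay between -0.0097 and 0.025 with an animal number left out and turned to between -0.0058 and -0.0012 without 1 of 5 strains. The change of Mrpl44 lay between -0.021 and 0.011 with an animal number left out and turned to between 0.0028 and 0.0062 without 1 of 2 strains. Members differing by status under vehicle went from 0 to 14 with animals as replicates. The causes were not tested.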

Other observations

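In vehicle liver, 19 strains had the highest mean of at least 1 member, 18 had the lowest, and 5 had neither. PWK/PhJ had the highest strain mean for 18 members and the lowest for 12, against 11.85% and 10.4% of all genes. C58/J was lowest for 13 members and highest for 6 (6.57% and 5.49% of all genes), and SWR/J, which has a narrow-spread vehicle array, was lowest for 11 and highest for none (4.28% and 3.47%). BALB/cJ was highest for 11 members and lowest for none (4.09% and 2.40% of all genes), and MA/MyJ highest for 7 (3.94%).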
